A study of Mus musculus with 12 samples.

Results

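The fibrillar collagen genes taken as members here were Col1a1, Col1a2, Col3a1, Col5a1, Col5a2, Col5a3, Col2a1 and Col11a1. Col11a2, also a fibrillar collagen gene, was measured but is not a member. Every probe set whose platform annotation gave a member's symbol was taken. This gave 16 probe sets for 8 genes, out of 22626 probe sets tested and 12393 genes named. Each of 12 RNA samples was run on an Affymetrix mouse array of its own. Primary keratinocyte cultures came from newborn mice, each from the pooled cells of 5 mice grown for no more than 3 days in low-calcium medium and never passaged. Of these cultures, 2 were of a mixed C57 DBA FVB background (replicates 1 and 2) and 3 were FVB (replicates 3 to 5). Whole skin was taken from newborn FVB mice (n = 2) and from 30-day-old mice of the mixed C57 DBA FVB background (n = 5). The labels name no transgene, deletion or treatment. Age and strain coincide in skin and cannot be told apart there, whereas each culture group had skin of its own strain. For the mixed cultures, from newborn mice, that skin was 30 days old, so age differs in that comparison. Whether the skin samples are from different animals is not in the labels; the spread behind each p-value is that among these samples and could be technical. The series set out to compare skin with culture, and newborn with older mice.

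Fibrillar collagens are made as procollagen chains that fold into triple helices in the endoplasmic reticulum, are trimmed outside the cell and assemble into cross-linked fibrils. In dermis, type I collagen (chains from Col1a1 and Col1a2) forms most of the fibril, type III (Col3a1) is mixed into it and type V (Col5a1, Col5a2, Col5a3) starts fibrils and limits their width. Col2a1 and Col11a1 encode chains best known from cartilage, although the Col11a1 chain can also join type V chains. Dermal fibroblasts are the main source of these chains in skin, and keratinocytes are known chiefly for collagens of the basement membrane.

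Promoter sequence was matched in RefSeq (GRCm38.p6) for 5 of the 8 genes. The windows of Col1a2 and Col3a1, none of whose probe sets passed as lower at 30 days in skin, and of Col5a1 and Col11a1, which fell by every probe set, are shown because this contrast recurs in the values that follow. They are the bases before the gene's outermost start, read 5′ to 3′ on the gene's strand. Capitals mark matches to common promoter motifs: the CCAAT box, written ATTGG where it reads on the opposite strand; the GC box, searched as GGGCGG and on the opposite strand as CCGCCC; and the TATA box, searched as TATAAA and on the opposite strand as TTTATA. No matches overlapped. Windows are Col1a2 chr6:4505368-4505617, Col3a1 chr1:45311288-45311537, Col5a1 chr2:27886175-27886380 and Col11a1 chr3:114030290-114030478, all on the plus strand.
Col1a2: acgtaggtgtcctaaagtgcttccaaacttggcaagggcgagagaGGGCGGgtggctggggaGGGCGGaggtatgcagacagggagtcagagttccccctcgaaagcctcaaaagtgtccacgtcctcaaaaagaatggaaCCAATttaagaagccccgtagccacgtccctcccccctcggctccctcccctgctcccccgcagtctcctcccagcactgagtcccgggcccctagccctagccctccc
Col3a1: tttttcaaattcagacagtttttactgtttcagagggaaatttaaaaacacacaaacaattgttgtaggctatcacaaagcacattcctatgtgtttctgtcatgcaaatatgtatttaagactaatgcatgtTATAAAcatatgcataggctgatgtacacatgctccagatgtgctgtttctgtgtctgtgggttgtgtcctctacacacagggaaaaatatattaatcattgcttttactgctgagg
Col5a1: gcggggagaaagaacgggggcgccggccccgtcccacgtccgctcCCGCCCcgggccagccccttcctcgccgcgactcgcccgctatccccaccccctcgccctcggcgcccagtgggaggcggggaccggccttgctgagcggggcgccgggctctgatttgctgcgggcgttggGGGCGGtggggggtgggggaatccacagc
Col11a1: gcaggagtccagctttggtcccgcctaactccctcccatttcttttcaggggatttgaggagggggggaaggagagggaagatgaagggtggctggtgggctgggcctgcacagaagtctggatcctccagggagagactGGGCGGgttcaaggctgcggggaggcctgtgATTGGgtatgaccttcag
The Col1a2 window held 1 CCAAT box and 2 GC boxes in 250 bases. The Col3a1 window of the same length held 1 TATA box and none of the others, and its G and C content was 35.2% against 62.0% for Col1a2. The Col5a1 window had 2 GC boxes and a G and C content of 77.7% over 206 bases. The Col11a1 window had 1 CCAAT box and 1 GC box over 189 bases. The Col5a3 window (chr9:20815118-20815317, minus strand) also had 1 of each. Among 27025 mouse promoters, windows of 250 bases held the CCAAT box in 34.5%, the GC box in 32.9% and the TATA box in 13%, with a median G and C content of 52.0%. Windows shorter than 250 bases have fewer places for a match. These are matches of letters and no binding was measured. Col3a1 and Col5a2 are adjacent protein-coding genes on chromosome 1, while the other 6 genes lie on chromosomes 11, 6, 2, 9, 15 and 3.

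Values are log2 expression after RMA, and array medians lay between 5.86 and 6.01, so arrays were on a similar scale. Of the labelled cell type's markers, Krt5 and Krt14, keratins of basal keratinocytes, were at 13.02 to 13.38 and 13.25 to 13.44 in culture. Other keratins were lower in culture than in skin. Against newborn skin, the log2 differences of FVB culture were -4.5 for Krt15, -4.3 for Krt10 and -3.27 for Krt1. Those of mixed culture against 30-day skin were -5.15, -4.26 and -2.91. Of 12 keratinocyte markers, 6 rose and 3 fell in the first of these comparisons, and 6 rose and 5 fell in the second. Over all genes 20.0% rose and 18.3% fell in the first, and 21.3% and 19.3% in the second. Of 15 fibroblast markers, the mean per array was 6.21 to 6.24 in mixed cultures, 5.61 to 5.73 in FVB cultures, 9.70 to 9.73 in newborn skin and 8.44 to 9.01 in 30-day skin. Pdgfra, a receptor that marks fibroblasts, was at 4.19 to 4.81 in culture, near the lowest 10% of each array (below 4.32 to 4.42), and Vim was at 7.95 to 9.54. Lum, a fibroblast marker that is also a fibril proteoglycan, was at 4.26 to 4.39. The 30-day skin replicate 1 stood apart from its group: the gap between the 3′ and 5′ control probe sets of actin was 1.74, against 0.67 to 0.82 in the other 4 samples. In newborn skin it was 0.99 to 1.14, in the FVB cultures 0.56 to 0.74 and in the mixed ones 0.21 to 0.35, so RNA quality moved with the groups, and its part in the results was not tested. Some arrays resembled each other more than the rest: values differed with an SD of 0.16 between the mixed cultures, 0.17 and 0.18 between 30-day replicates 2 and 3 and replicates 4 and 5, and 0.20 between the newborn skins, against 0.23 to 0.42 for other replicate pairs. Calls were therefore also made with these pairs averaged, which leaves 8 arrays. Centring arrays on 16 epithelial junction genes put the median log2 difference of all probe sets at -0.64, -0.23, -0.37 and 0.06 in the 4 comparisons below, in their order. Without it these medians were 0.045, 0.027, 0.004 and 0. The split of all calls then went from 4436 higher and 3356 lower to 904 and 16657 in the first, from 4831 and 3659 to 2586 and 6288 in the second, from 1562 and 2340 to 528 and 10972 in the third, and from 885 and 1200 to 924 and 477 in the fourth.

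**Figure D1:**
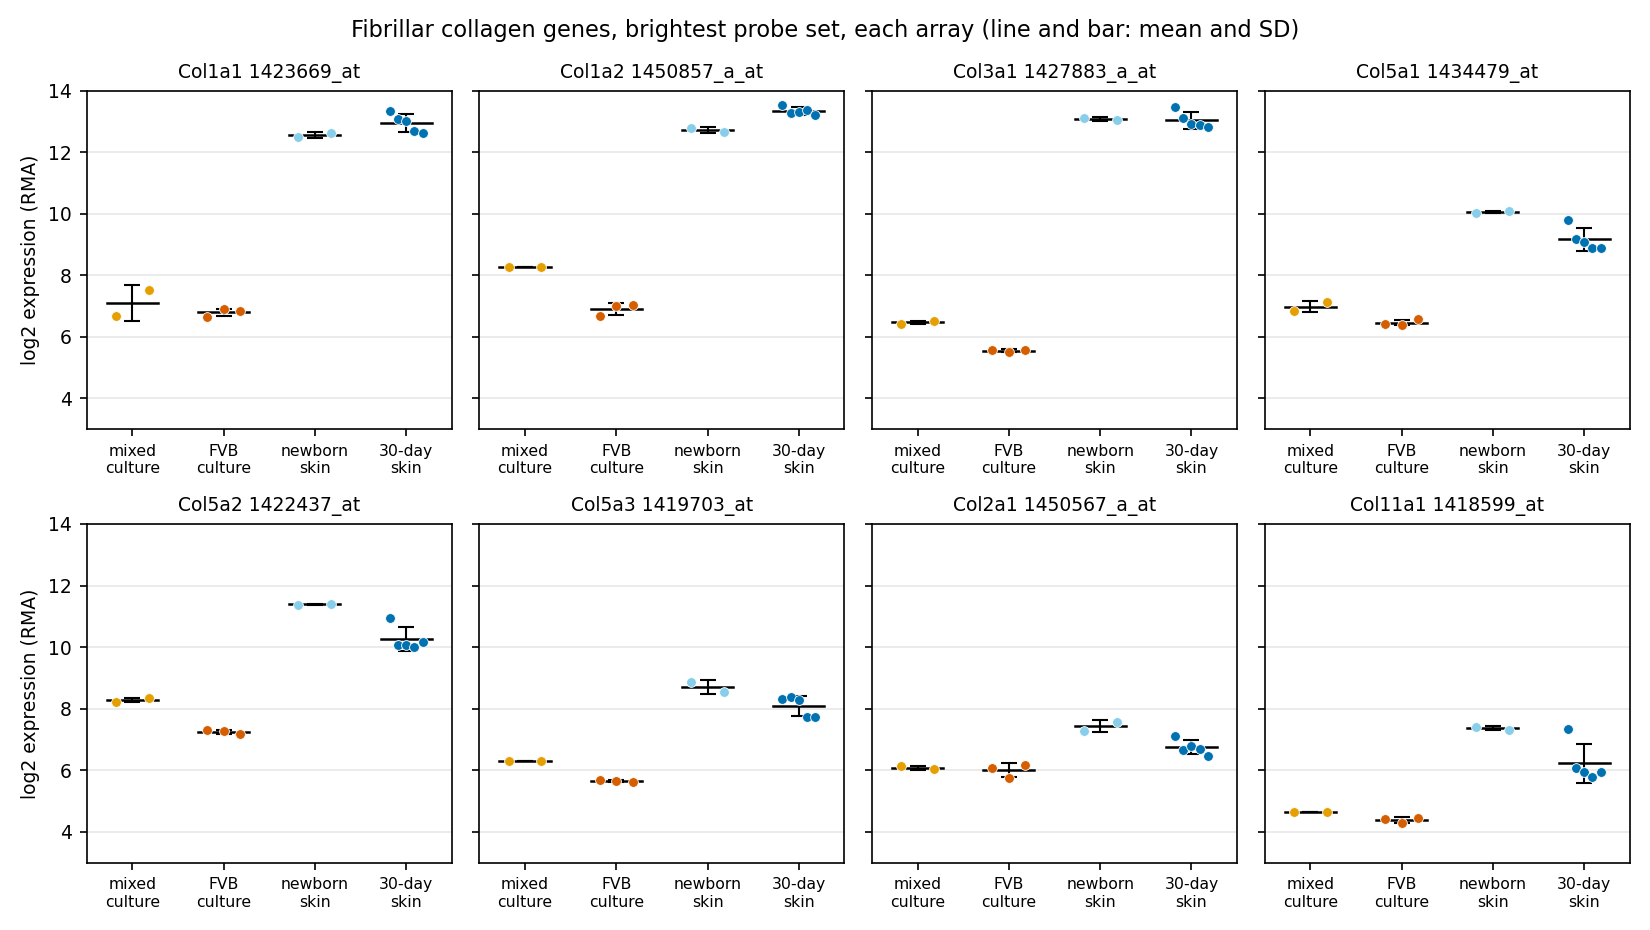
Log2 expression of the brightest probe set of each gene (y axis) in mixed-strain culture (n = 2), FVB culture (n = 3), newborn FVB skin (n = 2) and 30-day mixed-strain skin (n = 5), with each array as a point and the mean and SD as a line and bar. All culture points lie below all skin points of the same gene; 30-day replicate 1 is the leftmost point of its group and lies at 7.35 for Col11a1, against 5.80 to 6.09 in the other 4.

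In FVB culture, all 8 member genes were lower than in newborn FVB skin by at least 1 probe set, and 14 of 16 probe sets fell and 0 rose. Over all probe sets, 14.8% fell and 19.6% rose in this comparison. The median difference was -3.86 on the log2 scale for the members and 0.045 for all probe sets. The called falls ran from 2.7-fold for Col2a1 to 184-fold for Col3a1. Mixed-strain culture was compared with 30-day skin of the same background. These cultures came from newborn mice, so age differs there as well and cannot be told apart from culture. In this second comparison, whose group means share no array with those of the first, 15 of 16 probe sets fell and 0 rose. Over all probe sets 16.2% fell and 21.4% rose. The median there was -2.0 for the members, the median of all probe sets was 0.027, and falls ran from 1.59-fold (Col2a1) to 94.2-fold (Col3a1). Both tests came from 1 limma fit of all 12 arrays, whose residual spread they share, with Benjamini-Hochberg adjustment over 22626 probe sets. At an unadjusted p below 0.05 the count that rose was 0 in each as well. Fibroblast markers moved with these falls (15 of 15 lower in the FVB comparison, 14 of 15 in the mixed one), as did, in each comparison, 6 of 6 endothelial, 5 of 5 macrophage, 3 of 3 adipocyte and 6 of 7 skeletal muscle markers, and their part in the result was not tested. Fewer cells of a type and less RNA per cell cannot be told apart in bulk samples.

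Col1a1 encodes the chain present in the most copies per type I collagen molecule. Its probe set 1423669_at read 6.66, 6.90 and 6.83 in FVB culture and 12.50 and 12.63 in newborn skin. It read 6.68 and 7.51 in mixed culture and 13.33, 13.09, 13.02, 12.67 and 12.63 in 30-day skin. Every skin sample was above every culture by a wide margin. The fall was 54.4-fold in the FVB comparison (log2 difference -5.77 ± 0.23, SE; adjusted p = 4.39e-10) and 57.7-fold in the mixed one (-5.85 ± 0.21; adjusted p = 1.54e-10). The second Col1a1 probe set, 1455494_at, disagreed in size. It lay between 5.51 and 5.82 in culture, at 6.62 and 6.30 in newborn skin, at 8.04 in 30-day replicate 1 and at 6.70 to 6.84 in the other 30-day samples. Its difference was -0.83 ± 0.32 (adjusted p = 0.0592) in the FVB comparison and -1.25 ± 0.29 (adjusted p = 0.00363) in the mixed one, the latter at adjusted p = 0.0531 with close arrays averaged.

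Col1a2 encodes the partner chain of type I collagen. Probe set 1450857_a_at read 6.69, 7.01 and 7.02 in FVB culture and 12.79 and 12.64 in newborn skin. It read 8.26 and 8.28 in mixed culture and 13.53, 13.27, 13.31, 13.36 and 13.19 in 30-day skin. The groups did not overlap, and the mixed cultures were above all FVB cultures. The falls were 56-fold (-5.81 ± 0.13; adjusted p = 2.14e-12) and 33.3-fold (-5.06 ± 0.12; adjusted p = 2.22e-12). The other probe set, 1423110_at, went the same way, at 4.83 to 5.31 in FVB culture against 12.05 to 12.11 in newborn skin (129-fold) and 6.38 to 6.48 in mixed culture against 12.16 to 13.15 in 30-day skin (66.8-fold).

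Col3a1 encodes the single chain type of type III collagen, which is abundant in young and healing dermis. Probe set 1427883_a_at read 5.56, 5.51 and 5.59 in FVB culture and 13.11 and 13.04 in newborn skin. It read 6.43 and 6.51 in mixed culture and 13.45, 13.11, 12.90, 12.88 and 12.80 in 30-day skin. No other member had a larger log2 difference in either comparison: -7.52 ± 0.16 (adjusted p = 2.14e-12) and -6.56 ± 0.15 (adjusted p = 1.6e-12). Probe set 1427884_at fell by 7.04 and 6.24 on the log2 scale. In culture it read 3.74 to 4.46, around the lowest 10% of each array, so these falls may be limited from below. At the other end, the brightest type I and III probe sets in skin lay at or above percentile 99.7 of each array, with array maxima of 13.42 to 13.59, so differences in skin may be compressed there.

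The type V chains also fell in both comparisons. Col5a1, the chain of the common type V molecule that holds fibril width in check, has 3 probe sets. The brightest, 1434479_at, read 6.43, 6.4 and 6.57 in FVB culture and 10.03 and 10.08 in newborn skin, and it read 6.85 and 7.12 in mixed culture and 9.80, 9.17, 9.08, 8.90 and 8.90 in 30-day skin. The falls were 12-fold and 4.55-fold for this probe set. Across all 3 they ran from -3.36 to -4.57 in the FVB comparison and from -1.97 to -2.19 in the mixed one. Col5a2, its partner, read 7.31, 7.28 and 7.18 by 1422437_at in FVB culture and 11.38 and 11.40 in newborn skin. In mixed culture it read 8.23 and 8.34, and in 30-day skin 10.94, 10.08, 10.08, 10.01 and 10.17. The groups of each comparison lay apart, with falls of 17.5-fold and 3.92-fold, and 1450625_at fell 23.1-fold and 5.95-fold. Col5a3, a less widely expressed type V chain, read 5.61 to 5.69 by 1419703_at in FVB culture against 8.88 and 8.56 in newborn skin (8.37-fold). It read 6.30 and 6.31 in mixed culture against 7.72 to 8.37 in 30-day skin (3.44-fold). Its other probe set, 1425984_at, lay between 4.23 and 4.62 on all 12 arrays and did not pass in any comparison.

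Col2a1, the chain of the main cartilage collagen, had 1 probe set. It read 6.08, 5.74 and 6.18 in FVB culture and 7.29 and 7.58 in newborn skin. In mixed culture it read 6.13 and 6.03, and in 30-day skin 7.10, 6.67, 6.79, 6.70 and 6.48. By the brightest probe set of each gene, no other gene had a smaller gap: -1.44 ± 0.17 (adjusted p = 2.25e-05) and -0.67 ± 0.16 (adjusted p = 0.00442), and the latter had an adjusted p of 0.0647 with close arrays averaged and of 0.057 without culture replicate 2. Col11a1, a chain of the heterotypic fibrils of cartilage and some soft tissues, passed as lower by both probe sets in both comparisons. In culture 1418599_at read 4.29 to 4.66 and 1449154_at 3.41 to 3.92, around and below the lowest 10% of each array. The fitted log2 differences, -2.98 and -1.57 by 1418599_at and -2.34 and -1.28 by 1449154_at, may therefore be limited from below. Of 15 measured chondrocyte markers, 3 fell (Sox5, Acan and Cnmd, 20%) and 1 rose (Sox9) in the FVB comparison. Over all genes 18.3% fell and 20.0% rose there. In the mixed comparison 2 fell (Sox5 and Sox6, 13.3%) and 0 rose, against 19.3% and 21.3% of all genes. The shares that fell were thus near those of all genes. Sox6 and Cnmd did not exceed 4.86 on any array, so their calls lie close to background. The list mean per array stayed between 5.18 and 5.40 in all groups. Matn1, a cartilage matrix gene, was at 4.23 to 4.42 on all arrays. Of 4 osteoblast markers, 1 fell in each comparison, Alpl.

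**Figure D2:**
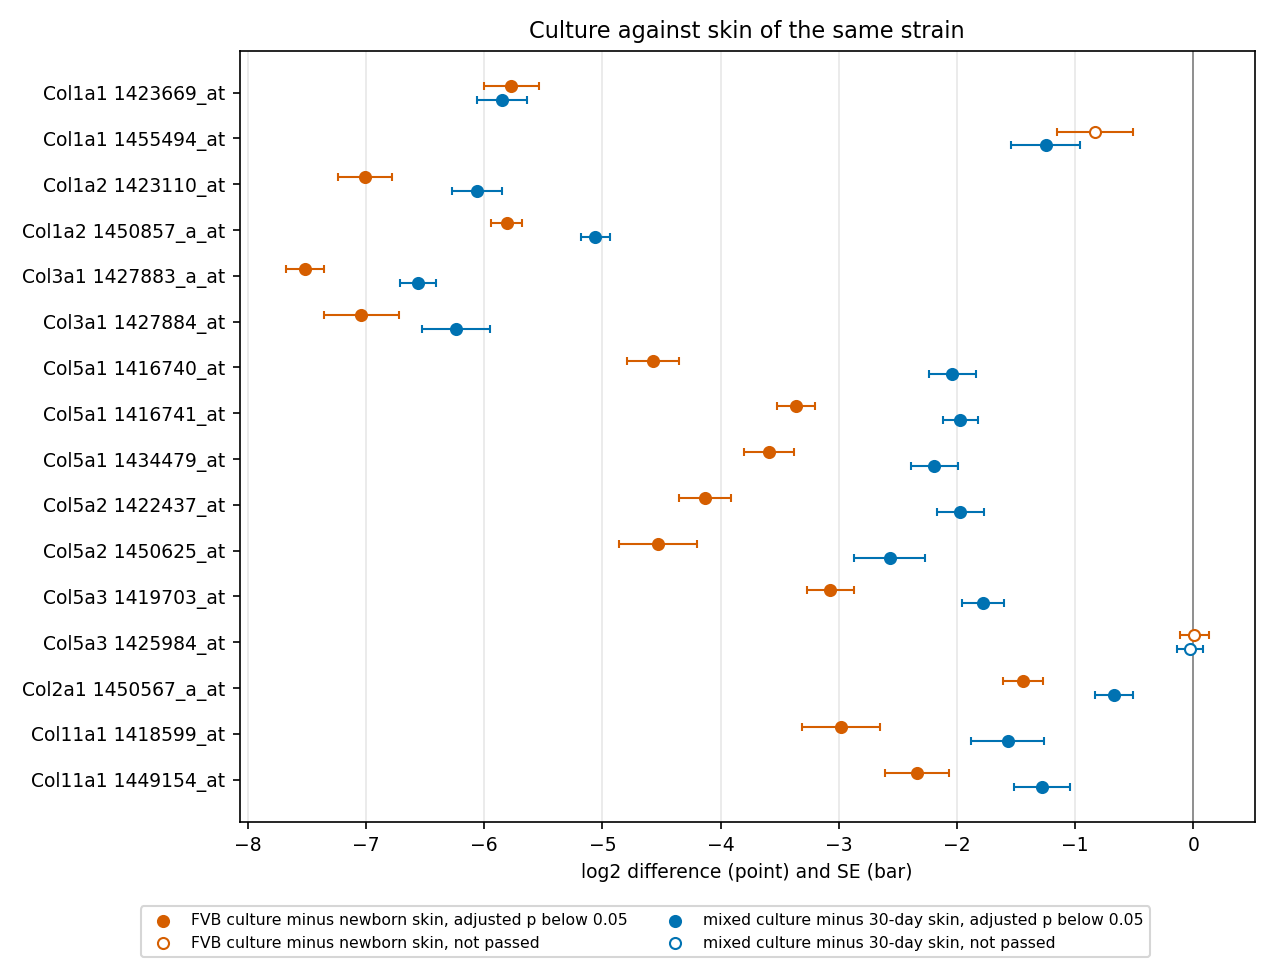
Log2 difference (x axis, point) with its SE (bar) for the 16 probe sets (rows), FVB culture minus newborn FVB skin (orange) and mixed-strain culture minus 30-day mixed-strain skin (blue), filled where the adjusted p was below 0.05. Type I and III probe sets reach -7.52, apart from Col1a1 1455494_at, and 6 of 7 type V probe sets lie nearer 0 in the mixed comparison than in the FVB one; Col5a3 1425984_at lies at 0.01 and -0.03.

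The size of the gap between culture and skin was then compared between the strain-matched sets. This difference of differences equals the 30-day minus newborn difference in skin, less the mixed minus FVB difference in culture, and each of the 4 groups enters once. It passed the test as below 0 for 8 of 16 probe sets of 5 genes and as above 0 for 0, also at an unadjusted p below 0.05, against 4.63% and 3.85% over all probe sets. Of 15 fibroblast markers 10 passed as below 0 and 0 as above, as did 5 of 6 endothelial markers, and their part was not tested. The largest called value of each type V gene was: Col5a1 1416740_at -2.54 ± 0.30 (adjusted p = 0.000129), Col5a2 1422437_at -2.16 ± 0.29 (adjusted p = 0.000422) and Col5a3 1419703_at -1.28 ± 0.26 (adjusted p = 0.00846). Col11a1 1418599_at, at -1.40 ± 0.45, did not pass (adjusted p = 0.0765). For Col1a2 1450857_a_at and Col3a1 1427883_a_at the values were -0.75 ± 0.18 (adjusted p = 0.0171) and -0.96 ± 0.22 (adjusted p = 0.0141). Col1a1 1423669_at gave 0.08 ± 0.31 and did not pass (adjusted p = 0.927). Over all probe sets, calls below 0 went from 1047 to 1494 without 30-day replicate 1. They were fewer without culture replicate 1 or 2, without newborn replicate 1 and with close arrays averaged, and the member count moved likewise. The count of 8 became 13 without 30-day replicate 1, 5 and 4 without culture replicate 1 or 2, and 4 without newborn replicate 1. With close arrays averaged it became 1, Col5a1 1416740_at.

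Within skin, the calls of the fibrillar collagens did not all go the same way between newborn and 30-day samples. Of 16 probe sets, 9 were lower at 30 days, from Col5a1, Col5a2, Col5a3, Col2a1 and Col11a1, and 1 was higher, from Col1a2. Over all probe sets, 10.3% were lower and 6.9% higher. The lower calls over all probe sets went from 2340 to 2956 without 30-day replicate 1. They were fewer without either newborn sample and with close arrays averaged, so the changes of count below are not particular to the collagens. The median difference of the members was -0.75, and that of all probe sets 0.004. Called changes ran from 1.53-fold to 2.72-fold. Markers moved with them: 10 of 15 fibroblast and 5 of 6 endothelial markers were lower at 30 days and 0 higher, and their part in the collagen differences was not tested. Newborn skin had only 2 samples: the count of 9 became 5 without newborn replicate 1 and 4 without newborn replicate 2, where the lone sample is assumed to vary like the other groups. It became 10 without 30-day replicate 1 and 1 with close arrays averaged (Col5a1 1416741_at).

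Of the type I and III genes, which make the bulk of the dermal fibril, 0 probe sets passed as lower at 30 days by limma (1 at an unadjusted p below 0.05), and 1 passed as higher. The Col1a1 1423669_at values given above overlap between the ages, with a difference of 0.38 ± 0.21 (adjusted p = 0.259). For Col1a2 1450857_a_at, every 30-day sample (lowest 13.19) was above both newborn samples (highest 12.79), and the rise was 1.53-fold (0.62 ± 0.12; adjusted p = 0.0029). That rise did not pass without newborn replicate 2 (adjusted p = 0.0679), with close arrays averaged (adjusted p = 0.132) or with epithelial centring (0.25; adjusted p = 0.184). The second Col1a2 probe set gave 0.41 ± 0.21 (adjusted p = 0.221). Col3a1 1427883_a_at differed by -0.05 ± 0.15 (adjusted p = 0.889). The brightest type I and III probe sets lie near the array maxima in skin, so a fall or rise between the ages may be compressed there. By 1427884_at, a dimmer probe set, Col3a1 read 11.27 and 11.07 in newborn skin and 11.27, 10.35, 10.22, 9.95 and 9.95 at 30 days. Only replicate 1 reached the newborn values, and the difference was -0.82 ± 0.29 (adjusted p = 0.0706), or -1.05 (adjusted p = 0.000518) without that replicate. This probe set also passed as lower with array weights (-0.97; adjusted p = 0.00155) and with epithelial centring (-1.19; adjusted p = 0.0078). Lower calls over all probe sets rose as well, from 2340 to 3153 with array weights and to 10972 with the centring.

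The type V genes were lower at 30 days by 6 of their 7 probe sets. Col5a1 1416740_at read 10.48 in both newborn samples and 9.80, 8.94, 9.18, 8.84 and 9.09 at 30 days. The groups did not overlap, and the fall was 2.48-fold (-1.31 ± 0.20; adjusted p = 0.000568). Probe sets 1416741_at and 1434479_at fell 2.10-fold (adjusted p = 0.000264) and 1.84-fold (adjusted p = 0.00745). Col5a2 1422437_at was 2.19-fold lower (-1.13 ± 0.20; adjusted p = 0.00148). Col5a2 1450625_at read 9.43 and 9.27 in newborn skin and 9.13, 8.0, 7.82, 7.65 and 7.61 at 30 days, 2.47-fold lower (adjusted p = 0.00956). In each of these Col5a1 and Col5a2 probe sets, replicate 1 was the 30-day sample nearest to newborn skin. Col5a3 1419703_at was 1.55-fold lower (-0.64 ± 0.18; adjusted p = 0.0264). With close arrays averaged, the adjusted p of the called type V probe sets other than 1416741_at lay between 0.0837 (Col5a1 1416740_at) and 0.308 (Col5a2 1450625_at).

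The cartilage-type genes were lower at 30 days too. Col11a1 1418599_at read 7.42 and 7.32 in newborn skin and 7.35, 6.09, 5.95, 5.80 and 5.95 at 30 days, a 2.21-fold difference (-1.14 ± 0.31; adjusted p = 0.0205) in which replicate 1 lay among the newborn values. Col11a1 1449154_at read 6.09 and 6.26, then 5.52, 4.82, 4.59, 4.23 and 4.52, with no overlap and a difference of -1.44 ± 0.24 (adjusted p = 0.00119); its 30-day values reach down to the lowest 10% of the arrays. Col2a1 was 1.61-fold lower (-0.69 ± 0.16; adjusted p = 0.00981). With only the arrays compared, Col11a1 1418599_at did not pass by limma (adjusted p = 0.0752). With close arrays averaged, the Col2a1 and Col11a1 calls were lost. The differences were then -0.63 for Col2a1, -0.95 for Col11a1 1418599_at and -1.31 for 1449154_at. Without newborn replicate 2, Col2a1 was at -0.54 and Col11a1 1418599_at at -1.19, and these calls were lost too. Among 15 chondrocyte markers, 4 fell (Sox5, Acan, Col9a3 and Cnmd) and 1 rose at 30 days, against 12.4% and 7.39% of all genes. Acan, a cartilage proteoglycan, was at -0.68 (adjusted p = 0.000679) and Sox9, a regulator of cartilage and of hair follicles, at 0.82 (adjusted p = 0.00744). Of the 4 osteoblast markers 0 passed, also at an unadjusted p below 0.05. Their part in the Col2a1 and Col11a1 differences was not tested.

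**Figure D3:**
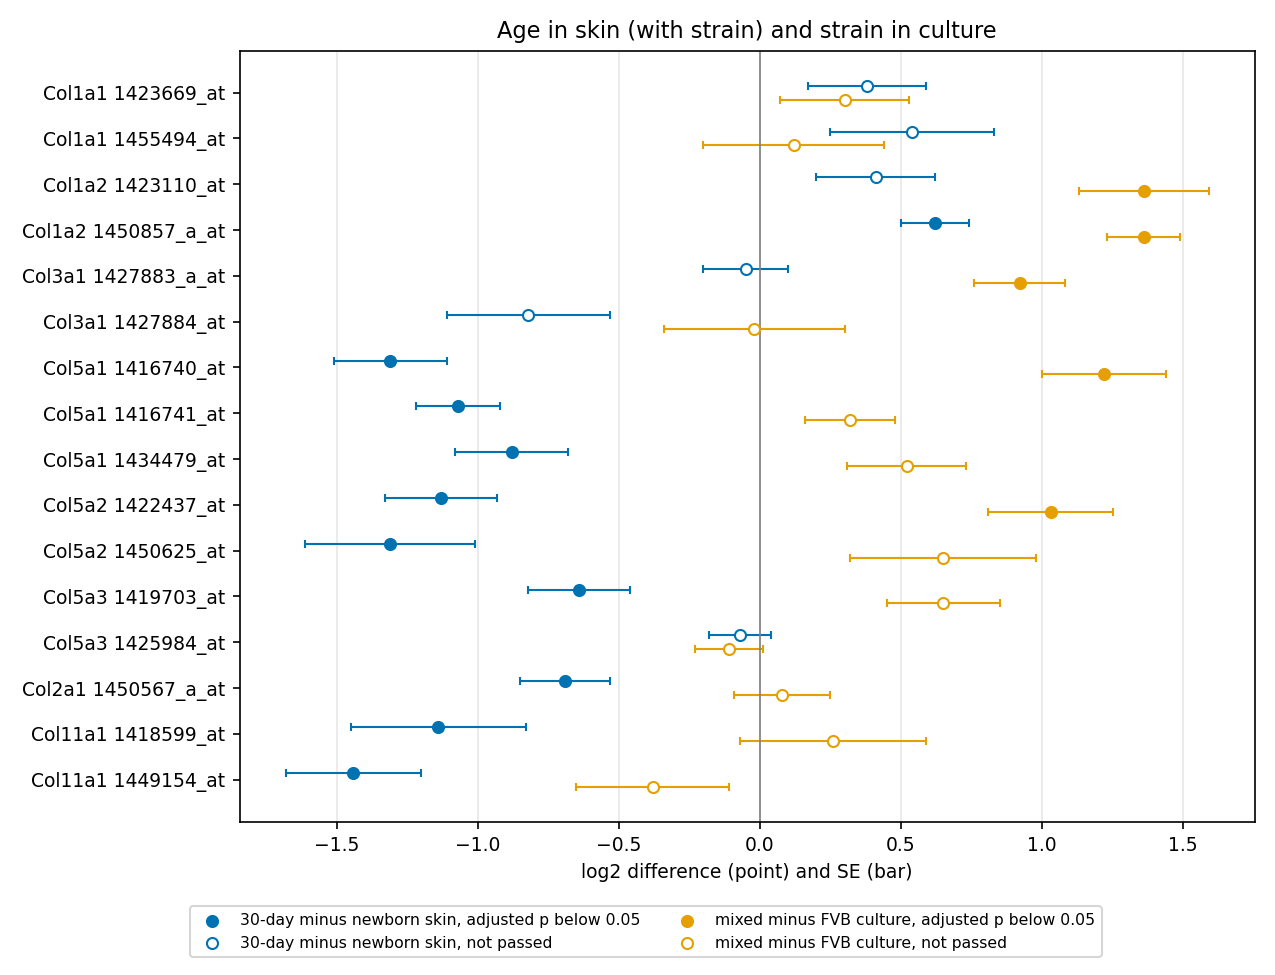
Log2 difference (x axis, point) with its SE (bar) for the 16 probe sets (rows), 30-day minus newborn skin (blue) and mixed minus FVB culture (yellow), filled where the adjusted p was below 0.05. Called skin values lie between -1.44 and -0.64 apart from Col1a2 at 0.62, and called culture values lie between 0.92 and 1.36.

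Because arrays can differ in overall scale, 5 log2 differences between genes were also taken within each array, by the brightest probe set. Such a difference shows unequal change between genes, and its zero has no meaning of its own. Col5a2 minus Col1a1 was -1.12 and -1.23 in newborn skin and -2.39, -3.01, -2.94, -2.67 and -2.45 at 30 days, a shift of -1.52. Col5a1 minus Col1a1 was -2.47 and -2.55, then -3.53, -3.92, -3.93, -3.77 and -3.73, a shift of -1.27. Col3a1 minus Col1a1 was 0.61 and 0.41, then 0.12, 0.02, -0.12, 0.21 and 0.17, a shift of -0.43. Col1a1 and Col3a1 in skin lie near the array maxima, where values may be compressed, so the sizes of these shifts, and of those against culture, are uncertain. In each of these 3 the ages did not overlap, and the two-sided exact permutation test gave p = 0.0476, the smallest it can give here, and 0.0794 after Benjamini-Hochberg adjustment over the 5. The difference between the type I chains, Col1a2 minus Col1a1, moved by 0.23 (exact p = 0.333), and that between the type V chains, Col5a2 minus Col5a1, by -0.25 (exact p = 0.0952, adjusted 0.119).

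The same differences were taken over all cultures against all skin samples. Col5a1 minus Col1a1 was between -0.50 and 0.16 in culture and its shift against skin was 3.17, and that of Col5a2 minus Col1a1 was 3.01, since the type V genes were less far below skin than Col1a1. The shift of Col3a1 minus Col1a1 was -1.20. Each of these 3 had an exact permutation p of 0.00126, the smallest possible with 5 and 7 samples, and 0.0021 after adjustment. Col1a2 minus Col1a1 moved by 0.22 (exact p = 0.5) and Col5a2 minus Col5a1 by -0.16 (exact p = 0.26). These values depend on the Col1a1 probe set: with the mean of all probe sets of each gene, which takes in 1455494_at, the shifts of Col5a1 and Col5a2 against Col1a1 were 0.76 (adjusted exact p = 0.0852) and 0.42 (adjusted exact p = 0.297), and that of Col1a2 turned to -2.69.

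**Figure D4:**
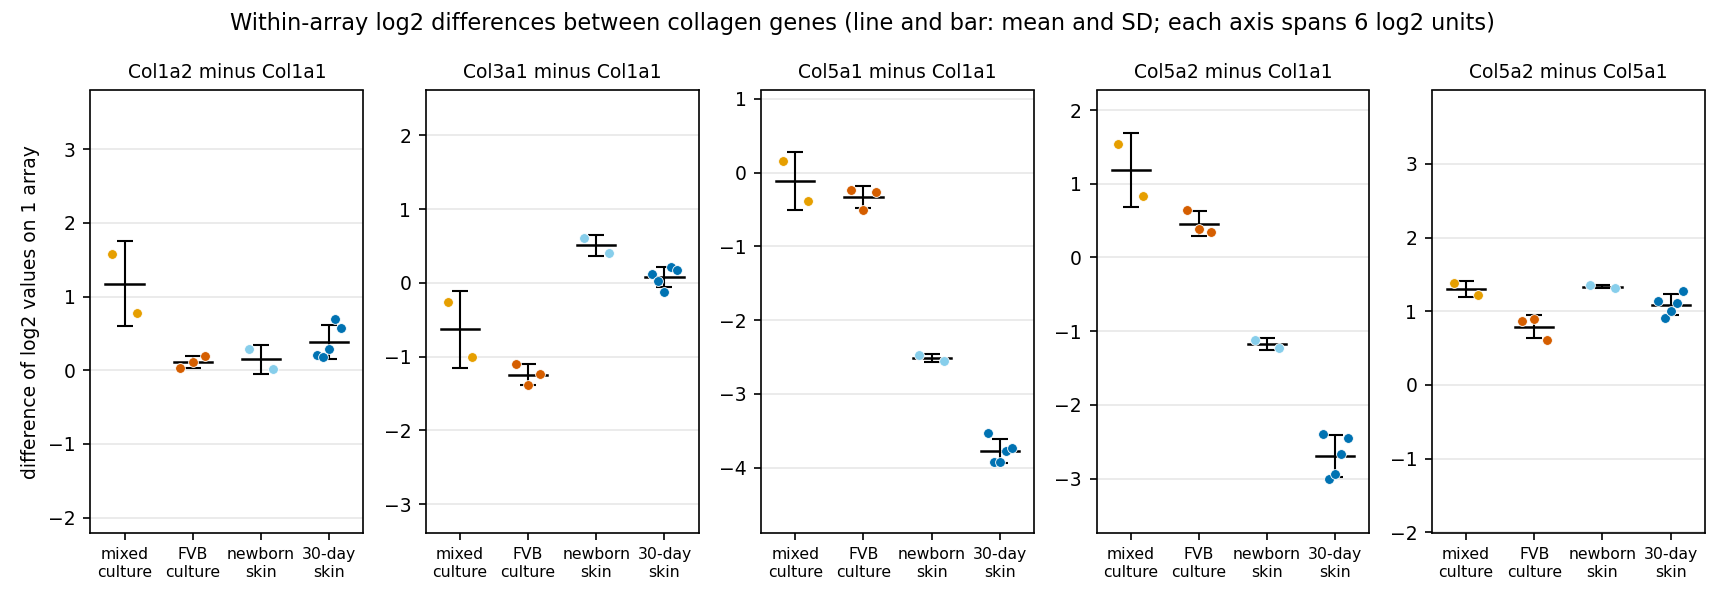
Differences of log2 values between the genes named, taken within each array (y axis, points), in the 4 groups, with the group mean and SD as a line and bar and each axis spanning 6 log2 units. Col5a1 and Col5a2 relative to Col1a1 step down from culture to newborn skin and again to 30-day skin, where Col5a2 minus Col1a1 lies between -3.01 and -2.39.

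Between the cultures, mixed-strain samples had higher values than FVB samples for 5 of 16 probe sets, from Col1a2, Col3a1, Col5a1 and Col5a2, and lower values for 0, also at an unadjusted p below 0.05. Over all probe sets, 3.91% were higher and 5.3% lower. Calls over all probe sets were also fewer without culture replicate 1 or 2 and with close arrays averaged. The median was 0.42 for the members and 0 for all probe sets. Col1a2 was higher by both probe sets, each 2.57-fold (1.36 ± 0.13, adjusted p = 3.73e-05 for 1450857_a_at; 1.36 ± 0.23, adjusted p = 0.00297 for 1423110_at). Col5a1 1416740_at read 7.17 and 7.10 in mixed and 5.71, 5.91 and 6.11 in FVB cultures, 2.34-fold higher (1.22 ± 0.22; adjusted p = 0.0041). Col5a2 1422437_at was 2.04-fold higher (1.03 ± 0.22; adjusted p = 0.0102) and Col3a1 1427883_a_at 1.89-fold higher (0.92 ± 0.16; adjusted p = 0.00352). The other Col3a1 probe set, near the lowest values of the arrays, differed by -0.02 ± 0.32, and Col1a1 1423669_at by 0.30 ± 0.23 (adjusted p = 0.47), with replicate 2 at 7.51 and replicate 1 at 6.68, inside the range of FVB cultures. The labels give no other difference between these cultures. The count of 5 became 3 without culture replicate 1 or replicate 2, and 1, Col1a2 1450857_a_at, with close arrays averaged.

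Markers moved with this strain difference. Of 15 fibroblast markers, 5 were higher in mixed cultures and 0 lower, against 2.99% higher and 6.25% lower over all genes. The list mean per array did not overlap between the strains, but this was no trait of the fibroblast list alone. The means of the smooth muscle and pericyte, endothelial, keratinocyte, adipocyte, Schwann cell and macrophage lists did not overlap either. The endothelial mean was 4.91 in mixed and 4.66 to 4.89 in FVB cultures. Vim, an intermediate filament of mesenchymal cells, was 1.37 ± 0.13 higher (adjusted p = 3.77e-05) and Lox, the lysyl oxidase that starts cross-links, 1.67 ± 0.33 higher (adjusted p = 0.0073). Pdgfra was 0.52 ± 0.11 higher (adjusted p = 0.00865), but its culture values lay near background. Dcn and Lum, proteoglycans among the fibroblast markers, differed by 0.22 (adjusted p = 0.321) and 0.07 (adjusted p = 0.873). Lum lay near background in culture, so a strain difference in it may not show. Among 8 smooth muscle and pericyte markers 2 rose (Tagln and Acta2) and 0 fell. Of the other lists, Lyz2 of 5 macrophage markers was 1.27 higher, Acta1 of 7 skeletal muscle markers 0.98 higher and Pmp22 of 3 Schwann cell markers 0.84 higher. Fabp4 of 3 adipocyte markers was also called higher (adjusted p = 0.00105), but it read 3.30 to 3.79 in FVB and 4.51 to 4.55 in mixed culture, near background. Sox9 of 15 chondrocyte markers was lower (-0.74), and 0 of 6 endothelial and 0 of 4 osteoblast markers passed by limma, also at an unadjusted p below 0.05. Of 12 keratinocyte markers 3 fell and 0 rose, with Krt1 at -2.29 ± 0.14 (adjusted p = 2.17e-06) and Krt10 at -1.17 ± 0.12 (adjusted p = 7.5e-05), keratins of the differentiating layers. The part of these markers in the collagen difference was not tested.

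The genes that build and modify procollagen chains did not all follow the chains themselves. Of 17 measured synthesis and folding genes, 12 fell and 1 rose in FVB culture against newborn skin, where 18.3% of all genes fell and 20.0% rose, and 7 fell and 4 rose in mixed culture against 30-day skin, where 19.3% of all genes fell and 21.3% rose. Serpinh1, the collagen chaperone of the endoplasmic reticulum, fell by 1.61 ± 0.21 (adjusted p = 4.24e-05) and 0.56 ± 0.19 (adjusted p = 0.0348). Plod1, a lysyl hydroxylase, had log2 differences of -2.16 and -1.37, and Creb3l1, a transcription factor of secretory cells, of -1.98 and -1.73, all called. Plod2, the hydroxylase of the telopeptides where cross-links form, rose by 0.92 ± 0.14 (adjusted p = 0.000157) and 1.82 ± 0.13 (adjusted p = 1.09e-07). The others that rose in the mixed comparison were P4hb, P3h4 and Colgalt1. In 30-day against newborn skin, 10 of the 17 fell and 0 rose, also unadjusted, against 12.4% of all genes falling and 7.39% rising, with a list median of -0.60. The largest falls were those of P3h4 (-1.20), whose product takes part in lysyl hydroxylation, and of P3h1 (-0.93) and Crtap (-0.80), of the prolyl 3-hydroxylation complex, and Plod2 and Serpinh1 fell by 0.79 and 0.64. The count of 10 became 13 without 30-day replicate 1 and 0 with close arrays averaged. Between the cultures, 0 of 17 passed by limma, and at an unadjusted p below 0.05 there were 2 higher and 3 lower.

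Of 10 processing and cross-linking genes, 7 fell and 1 rose in the FVB comparison, where 18.3% of all genes fell and 20.0% rose. In the mixed one 5 fell and 1 rose, against 19.3% and 21.3% of all genes. The riser in each was Tll1, a procollagen protease gene. Tll1 lay between 3.47 and 4.10 on all arrays, below the lowest 10% of each, so its calls compare values at background. Loxl1 and Lox, which oxidise lysines for cross-linking, fell by 4.71 and 4.39 in the first and by 2.06 and 0.99 in the second. Pcolce, which enhances cleavage of the procollagen end, fell by 3.86 and 3.13. In skin, 2 of the 10 (20%) fell at 30 days and 1 (10%) rose. Over all genes 12.4% fell and 7.39% rose, so these small counts do not set the list apart. The 3 genes were Loxl1 at -1.85 (adjusted p = 1.68e-06), Lox at -1.73 (adjusted p = 0.00151) and Pcolce2, a relative of Pcolce, at 1.88 (adjusted p = 1.73e-06). The Lox values were 9.96 to 10.07 in newborn skin and 7.88 to 9.38 at 30 days. In mixed against FVB culture Lox and Loxl1 rose, the latter by 0.79 (adjusted p = 0.00688), and no other gene of the list passed. Lox also stands among the fibroblast markers, so these lists overlap in that gene.

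Genes of the fibril surface were mostly lower in culture. Of 22, 17 fell (77.3%) and 0 rose in the FVB comparison, and 15 fell (68.2%) and 1 rose (Col12a1) in the mixed one, where 18.3% and 19.3% of all genes fell. Dcn, Lum and Dpt are also fibroblast markers. Lum fell by 6.35 and 5.22 and Dcn by 5.99 and 6.0, while Fmod, a related proteoglycan, fell by 0.87 and 0.46. Postn, which links fibrils to other matrix, fell by 5.67 and 3.73. In skin 11 of 22 fell at 30 days and 0 rose (2 at an unadjusted p below 0.05), against 12.4% and 7.39% of all genes. The falls were led by Aspn (-2.19), Thbs2 (-2.02) and Postn (-1.27), and Lum fell by 1.06 (adjusted p = 0.000885). Dcn was at 11.41 to 11.63 in newborn and 11.64 to 11.84 in 30-day skin, a difference of 0.23 that did not pass (adjusted p = 0.21). The 10 of 15 fibroblast markers that fell at 30 days moved with this list too, and their part in it was not tested. With close arrays averaged, the counts became 3 of 22 for the fibril surface and 4 of 15 for the fibroblast markers. Between the cultures 3 of 22 (13.6%) were higher in the mixed strain and 0 lower, against 2.99% and 6.25% of all genes. Bgn was at 1.67 ± 0.14 (adjusted p = 1.83e-05).

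Among 6 receptor genes, 2 fell and 1 rose in the FVB comparison and 2 fell and 2 rose in the mixed one. Mrc2, which takes up collagen fragments, fell by 2.06 and 1.21 in the FVB and mixed comparisons, Ddr2, a collagen-binding kinase, fell by 1.65 and 0.74, and Itgb1, an integrin subunit, rose by 1.21 and 1.5. Itga2, its partner in collagen binding, also rose in the mixed comparison. Of 11 degradation genes, 3 fell (27.3%) and 2 rose (18.2%) in the FVB comparison and 4 fell (36.4%) and 3 rose (27.3%) in the mixed one. Over all genes the shares were 18.3% and 20.0%, then 19.3% and 21.3%, so these small counts do not set the list apart. Mmp2, a gelatinase, fell by 3.46 and 3.24 and Ctsk, a lysosomal collagenase, by 1.58 and 2.60, whereas Mmp9 rose by 3.07 and 2.07. Mmp13, the main interstitial collagenase of the mouse, passed as higher in both (adjusted p = 7.25e-07 and 0.0378), but it read 3.28 to 3.51 in skin, 3.63 to 3.72 in mixed culture and 4.46 to 4.65 in FVB culture. All but the FVB cultures were below the lowest 10% of each array, so no size is given for it. In skin, 1 receptor gene (16.7%, against 12.4% of all genes) fell at 30 days, Mrc2 by 0.84. Mmp3 rose by 1.89 (adjusted p = 0.000295) and Timp2 rose, and Timp1, an inhibitor of these enzymes, fell by 0.61 (adjusted p = 0.0124). In mixed against FVB culture Timp1 rose by 1.05 (adjusted p = 0.00173), Ddr2 rose by 0.57, and Mmp9 fell by 0.86.

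Of 22 genes for transcription factors and the TGF-beta pathway, which drives collagen genes in fibroblasts, 8 fell (36.4%) and 7 rose (31.8%) in the FVB comparison, against 18.3% and 20.0% over all genes. In the mixed one 3 fell (13.6%) and 6 rose (27.3%), near the 19.3% and 21.3% of all genes. Prrx1, a mesenchymal homeobox factor, fell by 3.55 and 1.11, and Tgif1, a repressor in TGF-beta signalling, rose by 2.24 and 2.50. In skin 10 fell at 30 days (45.5%, against 12.4% over all genes) and 2 rose. The ligand genes Tgfb1, Tgfb2 and Tgfb3 fell, with differences of -0.77, -0.69 and -1.04, as did the receptor genes Tgfbr1 and Tgfbr2 at -0.71 and -0.62. Ccn2, a matrix protein gene that TGF-beta induces, rose by 0.62 (adjusted p = 0.0433). The 10 falls became 2 with close arrays averaged. In mixed against FVB culture Ccn2 and Prrx1 rose by 1.23 and 0.74, and Smad4 and Skil fell.

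Across the 12 arrays, the genes with the nearest centred log2 profile were taken for Col1a1, Col3a1 and Col5a1. Likeness was the root mean square difference over arrays, so a small value means a near profile. Nearest to Col1a1 were Dcn (0.31), Ckm (0.32), Selenop (0.36), Krt35 (0.38) and Acta1 (0.39). Of these, Ckm and Acta1 are skeletal muscle genes and Krt35 is a hair keratin, and Col1a2 stood at 0.43. Nearest to Col3a1 were Fabp4 (0.22), an adipocyte gene, the muscle genes Myl1 (0.24) and Tnnc2 (0.46), Krt71 (0.55) and Car3 (0.58). Nearest to Col5a1 were Col6a3 (0.18), Rhoj (0.18), Dab2 (0.24), Col4a1 (0.25) and Mef2c (0.25), with Col5a2 at 0.23 and Col5a3 at 0.29. The profiles share the same 12 arrays, and the gap between culture and skin weighs most in them. Of 12 keratinocyte markers, 6 rose and 3 fell in the FVB comparison, 6 rose and 5 fell in the mixed one, and 2 rose and 3 fell at 30 days in skin. Of 8 smooth muscle and pericyte markers 6 fell in each culture comparison, and Acta2 rose in the mixed one; at 30 days Cnn1 rose and Des and Pdgfrb fell. In skin, 2 of 7 skeletal muscle markers rose (the adult myosins Myh1 and Myh4) and 2 fell (the developmental myosins Myh3 and Myh8) at 30 days, 5 of 6 endothelial markers fell, 1 of 3 adipocyte markers fell and 2 of 5 macrophage markers rose. Of 3 Schwann cell markers, 2 fell (Sox10 and Pmp22) and 1 rose (Mbp) in the FVB comparison, Mbp rose in the mixed one, and Pmp22 fell at 30 days. Over all genes, 18.3% fell and 20.0% rose in the FVB comparison, and 19.3% and 21.3% in the mixed one. At 30 days 12.4% of all genes fell and 7.39% rose.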

How the data were processed

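Expression was measured on 12 Affymetrix arrays, 1 per sample. The values deposited by the authors are log2 expression per probe set made by RMA, per the submitters' processing notes; the RMA version is not given in the sources used. RMA normalises by quantiles, which assumes like RNA distributions in skin and culture. It gives no count or detection call, and precision is limited by the number of arrays. Of 22690 probe sets, 64 controls were left out. Symbols came from the platform annotation: 20380 probe sets had 1 symbol, and 20351 of these were matched to RefSeq genes.

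All 22626 probe sets were fitted with limma 3.58.1 in R 4.3.3 (4 group means, 12 arrays, two-sided, Benjamini-Hochberg adjustment over all probe sets, threshold 0.05). Groups came from titles and strain labels. In lists, a gene was its brightest probe set. The genes named were all members, the 3 genes of each list with the largest difference, genes with a direct role in type I, III or V collagen, and the 5 nearest profiles. Further genes were named after their values were seen. The members and lists were chosen with earlier results of these data known. Alternatives covered normalisation, centring, dim probe sets, the variance model, thresholds, a replicate block, averaged close arrays and each array left out. Tested on simulated data with the 30-day minus newborn design over 22626 probe sets, the fit recovered 29.9%, 89.6% and 100% of log2 changes of 0.5, 1 and 2.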

Additional observations from a re-analysis of the deposited data

Results flagged for a closer look

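A sample far from the others in its group was found in 5 of 32 groups of collagen values tested, where chance gives about 1 in 20 for each. The groups are 16 probe sets read on the same arrays, some of the same gene, so they are not independent. Among the 5 cultures of both strains, replicate 2 read 7.51 for Col1a1 1423669_at. The other 4 cases were all 30-day skin replicate 1, which read 8.04 for Col1a1 1455494_at, 10.94 for Col5a2 1422437_at, 9.13 for Col5a2 1450625_at and 7.35 for Col11a1 1418599_at, each above the other 4 samples. The actin 3′ to 5′ gap of this array was 1.74, and its part in these values was not tested.

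The gap between culture and skin differed between the FVB set with newborn skin and the mixed-strain set with 30-day skin, by a limma test of the difference itself, for 8 probe sets. The differences were -0.75 for Col1a2 1450857_a_at, -0.96 for Col3a1 1427883_a_at, -2.54, -1.39 and -1.40 for Col5a1 1416740_at, 1416741_at and 1434479_at, -2.16 and -1.96 for Col5a2 1422437_at and 1450625_at, and -1.28 for Col5a3 1419703_at. Negative values mean a wider gap in the FVB set. Age of the skin, strain and the marker levels given beside the results all differ between the sets and cannot be told apart.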

How the results depend on the processing

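The counts of lower probe sets in culture against skin moved least: leaving out each array in turn gave 14 to 14 for FVB and 14 to 15 for mixed strain, and 8 of 8 genes were lower in each with 1 probe set per gene. With 1 probe set per gene, 5 of 8 genes were lower at 30 days. The count of lower probe sets at 30 days ran from 4 to 10 and that of higher ones from 0 to 1 over the arrays left out. The higher count was 0 with epithelial centring, with 1 mean for all cultures and at a 2-fold minimum. For mixed against FVB culture, 3 to 5 probe sets were higher over the arrays left out, and 8 with array weights or with only the arrays compared. The difference of differences had 4 to 13 lower probe sets over the arrays left out, 13 with array weights and 5 at an adjusted p below 0.01. With close arrays averaged, an alternative chosen after seeing the data, the counts were 1 lower and 0 higher at 30 days, 1 higher between cultures and 1 lower for the difference of differences, with fewer arrays in the fit; Col3a1 1427883_a_at at 30 days turned to 0.03. Epithelial centring turned Col3a1 1427884_at between cultures to 0.05, and gave 325 higher and 6387 lower over all probe sets for the difference of differences, against 871 and 1047. Over all probe sets, higher calls between cultures went from 885 to 2289 with array weights and to 1468 with only the arrays compared. Lower calls for the difference of differences went from 1047 to 1904 with array weights and to 536 at an adjusted p below 0.01. The changes of member count in these settings are therefore not particular to the collagens.

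Same-numbered samples did not deviate together (no correlation over 0.1, and 2 of 10 culture and 30-day arrays lay closest to their own number), so the numbers do not pair them. With a replicate block, 4 probe sets were lower and 3 higher at 30 days, 1 lower and 1 higher between cultures, and 1 lower for the difference of differences; Col3a1 1427883_a_at at 30 days turned to 0.21. Over all probe sets the block gave 1245 lower and 934 higher at 30 days, and 717 lower and 587 higher between cultures. For the difference of differences it gave 286 lower. Between cultures the block turned Col1a1 1423669_at to -0.14, Col1a1 1455494_at to -0.60, Col5a1 1434479_at to -0.01, Col5a2 1450625_at to -0.22, Col2a1 to -0.15 and Col11a1 1418599_at to -0.56. Mixed and FVB cultures share no replicate number, so the block moves their difference only through the skin arrays. It therefore cannot show how firm the culture difference is. Leaving out 1 array gave -0.21 to 0.15 for Col3a1 1427884_at between cultures, -0.11 to 0.71 for Col1a1 1423669_at, -0.05 to 0.17 for Col2a1, and up to 0.01 for Col3a1 1427883_a_at at 30 days.

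For within-array differences of all cultures against all skin, the mean of all probe sets gave -2.69 for Col1a2 minus Col1a1 (adjusted exact p = 0.00316), 0.76 for Col5a1 minus Col1a1, 0.42 for Col5a2 minus Col1a1 and -0.34 for Col5a2 minus Col5a1 (adjusted exact p = 0.00842). Over the arrays left out, Col1a2 minus Col1a1 ran from -0.04 to 0.35, and Col5a1 minus Col1a1 between cultures from -0.06 to 0.49. Where no value or construction shows it, the cause was not tested.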

Other observations

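There were 19 measured collagens other than the members, and these include the fibrillar Col11a2. Of the 19, 6 fell (31.6%) and 4 rose (21.1%) in FVB culture against newborn skin, where 18.3% of all genes fell and 20.0% rose. In mixed culture against 30-day skin 6 fell (31.6%) and 5 rose (26.3%), against 19.3% and 21.3% of all genes. The type VI chains Col6a1 and Col6a2, which form beaded filaments around fibrils, fell, with log2 differences of -4.89 and -4.81 in the first and -2.74 and -2.97 in the second. Collagens of the epidermal attachment went up in culture: Col17a1, of hemidesmosomes, rose by 2.59 and 1.58, and Col7a1, of anchoring fibrils, by 1.07 and 1.91. Col8a1, a short-chain network collagen, rose by 1.24 and 2.73.

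In 30-day against newborn skin, 7 of the 19 fell (36.8%, against 12.4% of all genes) and 1 rose. The falls were -1.34 for Col7a1 (adjusted p = 0.000188), -1.31 for Col8a1 (adjusted p = 5.59e-05) and -1.29 for Col6a1 (adjusted p = 0.00126), while Col17a1 rose by 0.61 (adjusted p = 0.0252). With close arrays averaged 2 fell and 0 rose. Between mixed and FVB cultures 5 rose (26.3%) and 0 fell, against 2.99% and 6.25% of all genes. The rises were led by Col4a5 (1.28 ± 0.23, adjusted p = 0.00454), Col4a1 (0.92 ± 0.21, adjusted p = 0.0152) and Col6a1 (0.86 ± 0.24, adjusted p = 0.0404). With close arrays averaged 0 of these passed.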
